A study of Mus musculus with 29 samples.

Results

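The 9 genes described here encode RNase T2 and other nucleases that meet nucleic acids in lysosomes, endosomes or the extracellular space. They were listed by name for their function, with earlier results of these data known. The list holds Rnaset2a, Rnaset2b, Rnase4, Rnase6, Dnase2a, Dnase1l3, Pld3, Pld4 and Trex1. Of these 9 genes, 5 were found among the 23930 genes of the expression table by symbol, namely Rnase6, Dnase2a, Dnase1l3, Pld3 and Pld4. Rnaset2a, Rnaset2b, Rnase4 and Trex1 were not analysed here, so the deleted genes themselves could not be used to check the genotype of any library.

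The study asked how macrophages of untreated Rnaset2-/- mice, which lack both murine RNase T2 genes in every tissue, compare with wild-type ones, and sequenced RNA of cells sorted from 2 organs. The 29 libraries fall into 9 groups. From the spleen there were 3 libraries each of wild-type Ly6Chi and Ly6Clow macrophages, 3 of Rnaset2-/- Ly6Chi macrophages and 4 of Rnaset2-/- Ly6Clow macrophages. From the liver there were 3 libraries each of Ly6Chi and Ly6Clow macrophages of either genotype and 4 of wild-type Kupffer cells (KCs), the resident macrophages of the liver. No KCs of Rnaset2-/- mice were analysed here. Per the labels, the Ly6C subsets were CD11b+ cells gated against neutrophils (Ly6G), eosinophils (SiglecF) and NK cells (NK1.1), the Ly6Clow subset was also gated on Fcgr4, and KCs were gated on F4/80 and Tim4. The study's own account of the sorting differs, giving KCs as F4/80+ CD11blow cells and naming neither Tim4 nor SiglecF. The methods of the study state the C57BL/6 background and mice of both sexes, whereas the ages of the mice behind these libraries are not given in the sources used here, nor is it stated whether each library came from a separate mouse. The p-values below therefore measure the spread between libraries, which may be technical.

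Macrophages take up dead cells, microbes and free nucleic acids and break them down in acidic compartments. RNase T2 cuts single-stranded RNA there, DNase II cuts double-stranded DNA, and the phospholipase D family members Pld3 and Pld4 remove nucleotides from the 5' end of single-stranded nucleic acids. Together they set how much RNA and DNA reaches the Toll-like receptors (TLRs) of the endosome, and loss of single members of this group causes autoinflammatory disease. Rnase6 encodes a small secreted ribonuclease of the RNase A family that is made by myeloid cells and has antimicrobial activity. Dnase1l3 encodes a secreted DNase that digests chromatin released by dying cells and is made by macrophages, dendritic cells and liver sinusoidal endothelial cells.

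In the GENCODE vM21 annotation of GRCm38 (mm10), Rnase6 lies at chr14:51123908-51132187 on the plus strand, Dnase2a at chr8:84908560-84922915 on the plus strand and Dnase1l3 at chr14:7964533-7994573 on the minus strand. Pld3 lies at chr7:27532000-27553218 on the minus strand and Pld4 at chr12:112760655-112768990 on the plus strand. The 2 upstream windows below are shown because Rnase6 and Pld4 moved in opposite directions in hepatic Ly6Clow macrophages. Each holds the 250 bases before an annotated RefSeq start (GRCm38.p6), and neither overlaps an annotated exon. The window of Rnase6 is chr14:51123658-51123907 and that of Pld4 is chr12:112760405-112760654, both written 5' to 3' on the plus strand, with no capitals because none of the searched motifs was found in them.
Rnase6: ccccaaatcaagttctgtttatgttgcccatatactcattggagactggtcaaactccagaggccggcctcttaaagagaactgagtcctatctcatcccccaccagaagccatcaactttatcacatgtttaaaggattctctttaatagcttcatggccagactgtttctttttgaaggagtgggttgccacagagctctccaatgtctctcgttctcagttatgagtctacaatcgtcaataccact
Pld4: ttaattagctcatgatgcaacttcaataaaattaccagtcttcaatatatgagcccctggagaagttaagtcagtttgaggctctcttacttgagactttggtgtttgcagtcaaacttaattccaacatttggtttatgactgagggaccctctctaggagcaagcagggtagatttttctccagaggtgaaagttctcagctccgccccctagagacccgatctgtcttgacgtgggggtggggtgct
Motifs were searched on both strands as AGGAAGT (the core bound by the macrophage factor PU.1), CCGGAA (a core of other ETS factors), CACGTG (the E-box bound by TFEB and related factors) and TGANTCA (the AP-1 site). Of the 32851 upstream windows of this length in the RefSeq table, 7.69% held AGGAAGT, 12.0% CCGGAA, 6.02% CACGTG and 6.75% TGANTCA. The PU.1 core occurred once in each of the 2 other windows of Rnase6, which overlap each other, and CCGGAA occurred at 2 places before Pld3. The window of Dnase2a held none of the 4 motifs. Of the 250 bases, annotated exons covered 188 and 215 in the 2 other windows of Rnase6. They covered 121 bases in the window of Pld3 and 195 in that of Dnase2a. The motifs were chosen after the sequences were read, and a match of letters says nothing of binding.

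The libraries held 11175843 to 21167602 reads, and the 5 genes had between 108 and 29583 reads in every library. The value of each gene is given in RPM (reads scaled to a fixed library total) as deposited, and because the kit amplifies a short target of each gene, RPM were not compared between genes. Marker levels followed the labels for Ly6Chi monocytes and for a KC receptor, but not for every list. Over 9 markers of Ly6Chi monocytes, the summed level was 5137 to 7014 RPM in splenic Ly6Chi libraries and 489 to 1829 RPM in splenic Ly6Clow libraries, and in the liver it was 1697 to 4155 RPM against 68.5 to 951 RPM. Clec4f, the defining receptor of KCs, was at 1674 to 5470.5 RPM in KCs and at most 63.3 RPM in any other library. The summed level of 10 Ly6Clow monocyte markers did not separate the subsets in the Rnaset2-/- liver. It was 2148 to 8325 RPM in Ly6Chi and 6762 to 9827 RPM in Ly6Clow libraries there. Some libraries stood apart from their group. KC replicate 3 held 7635 RPM over 10 KC markers, against 18388 to 20359 RPM in the other 3 KC libraries. Replicate 1 of the hepatic Rnaset2-/- Ly6Chi group held 2148 RPM over 10 markers of Ly6Clow monocytes, against 8000 and 8325 RPM in the other two. Replicate 1 of the splenic Rnaset2-/- Ly6Clow group held 41668 RPM over 12 neutrophil markers, against 3644 to 23727 RPM in the other 3. In the liver the genotypes also differed in sex and in immediate early genes. Xist, the RNA that marks the inactive X chromosome, was at 0 to 0.154 RPM in all 6 Rnaset2-/- libraries and at 321 to 949 RPM in all 10 wild-type libraries, so that in the liver genotype and sex cannot be told apart. RNA of 4 Y-linked genes was at 150 to 291 RPM in the former and at 0 to 52.0 RPM in the latter. In the spleen, 12 of 13 libraries held Xist, and replicate 2 of the Rnaset2-/- Ly6Clow group held 0.781 RPM. The summed level of 20 immediate early genes, which rise with cell handling as well as with stimulation, was 29206 to 41908 RPM in wild-type hepatic Ly6Chi and Ly6Clow libraries, 1752 to 9691 RPM in the Rnaset2-/- ones and 2624 to 4049 RPM in KCs. The part of these differences in the results below was not tested.

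Rnase6 was high in 7 of the 9 groups and low in the other two. The wild-type hepatic Ly6Clow libraries held 648, 407 and 449 RPM, the Rnaset2-/- ones 75.9, 21.2 and 27.9 RPM, and the 4 KC libraries 95.1, 81.5, 121 and 121 RPM. The lowest wild-type Ly6Clow library thus stood well above every KC library, and every KC library above every Rnaset2-/- Ly6Clow library. Ordered by mean, the level fell from 614 ± 58.2 RPM (SD, n = 3) in wild-type splenic Ly6Clow macrophages through 501 ± 129, 432 ± 62.9, 388 ± 75.1, 370 ± 115 and 348 ± 10.3 RPM to 303 ± 36.3 RPM in Rnaset2-/- splenic Ly6Chi macrophages. Neighbours in that order overlapped from library to library down to this point. Then followed KCs at 105 ± 19.6 RPM (n = 4) and Rnaset2-/- hepatic Ly6Clow macrophages at 41.7 ± 29.8 RPM (n = 3), neither of which overlapped its neighbour. The range from the highest to the lowest group mean was 14.7-fold.

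Pld3, one of the 2 exonucleases, showed the reverse order in the liver. It was at 16.3, 25.5 and 24.9 RPM in wild-type hepatic Ly6Clow libraries, at 184, 126 and 144 RPM in the Rnaset2-/- ones, and at 166, 148, 58.7 and 153 RPM in KCs. The Rnaset2-/- and KC libraries overlapped, and both lay above all wild-type Ly6Clow libraries. In the hepatic Ly6Chi groups, the wild-type libraries held 21.4, 36.9 and 25.7 RPM and the Rnaset2-/- ones 157, 32.8 and 34.9 RPM, so that the high mean of the latter, 74.9 ± 71.0 RPM (n = 3), rested on replicate 1. In the spleen, Pld3 was at 33.2 to 36.5 RPM in wild-type Ly6Chi libraries, at 13.4 to 16.5 RPM in Rnaset2-/- Ly6Chi libraries and at 22.1 to 26.5 RPM in wild-type Ly6Clow libraries. Rnaset2-/- splenic Ly6Clow libraries held 101, 32.9, 24.2 and 36.1 RPM, with replicate 1 far above the others. That library also held the most neutrophil marker RNA of its group. Splenic Ly6Chi libraries, at 31836 to 60476 RPM of neutrophil markers, held 13.4 to 36.5 RPM of Pld3. The part of neutrophil RNA in the Pld3 values was not tested. Group means ranged 9.78-fold, and all neighbours in the order overlapped.

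Pld4, the exonuclease that is made mainly by myeloid and plasmacytoid cells, was highest in 2 groups that did not differ beyond their spread. These were Rnaset2-/- hepatic Ly6Clow macrophages at 1619, 2302 and 1797 RPM and wild-type splenic Ly6Clow macrophages at 1758, 2028 and 1871 RPM. Wild-type hepatic Ly6Clow libraries held 979, 763 and 901 RPM. KCs were lowest, at 505, 517, 289 and 533 RPM, with no overlap with any other group. Between these lay Rnaset2-/- splenic Ly6Clow macrophages at 1525 ± 226 RPM (n = 4), the wild-type and Rnaset2-/- splenic Ly6Chi groups at 1326 ± 23.9 and 992 ± 136 RPM, and the hepatic Ly6Chi groups at 904 ± 67.3 RPM in wild-type and 1315 ± 239 RPM in Rnaset2-/- mice (n = 3 each). The 9 group means spanned 4.13-fold.

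Dnase2a, which encodes the acid DNase of lysosomes, varied least, with group means that spanned 3.12-fold and neighbours that all overlapped. Rnaset2-/- hepatic Ly6Clow libraries held 238, 222 and 169 RPM. KCs held 174, 171, 70.5 and 213 RPM, so that 3 of the 4 KC libraries lay within the range of the Rnaset2-/- Ly6Clow group and replicate 3 lay below it. Wild-type hepatic Ly6Clow libraries held 72.3, 91.1 and 58.4 RPM. In the spleen, all 6 wild-type libraries lay between 65.8 and 73.2 RPM and the 7 Rnaset2-/- libraries between 63.2 and 119 RPM.

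Dnase1l3 varied most, with group means that spanned 129-fold. KCs held 486, 572, 1293 and 650 RPM and did not overlap any other group. Rnaset2-/- hepatic Ly6Chi libraries held 326, 342 and 448 RPM, against 42.1, 45.3 and 39.4 RPM in wild-type ones. Rnaset2-/- hepatic Ly6Clow libraries were widely spread, at 414, 57.6 and 283 RPM, against 84.9, 129 and 138 RPM in wild-type ones. In the spleen, wild-type Ly6Chi libraries held 21.1, 21.4 and 23.8 RPM and Rnaset2-/- ones 5.10, 5.73 and 6.65 RPM, the lowest group of the 9. Splenic Ly6Clow libraries held 25.5 to 27 RPM in wild-type mice and 42.0, 62.8, 9.93 and 15.6 RPM in Rnaset2-/- mice, on both sides of the wild-type range.

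**Figure D1:**
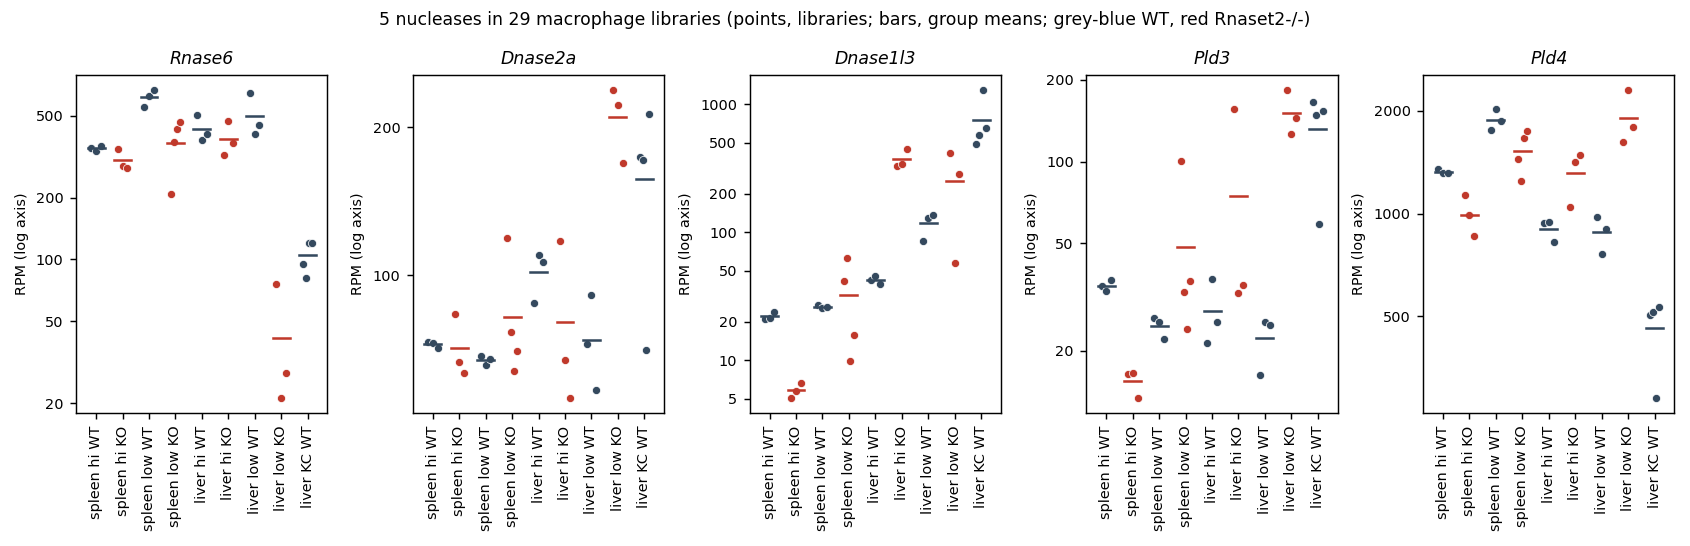
RPM of the 5 nucleases (log axes, 1 panel a gene) in each of the 29 libraries (points) with group means (bars), in wild-type (grey-blue) and Rnaset2-/- (red, KO) groups. Rnase6 is lowest in Rnaset2-/- hepatic Ly6Clow macrophages, where Pld3, Dnase2a and Pld4 have their highest group means.

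Genotypes were compared within each organ and subset with limma on log2(scaled RPM + 1), where the scaling used relative log expression factors and the added 1 understates the change of low genes. A gene was called at an adjusted p (Benjamini-Hochberg, over all genes tested) below 0.05 and >1.5-fold on that scale. All 5 nucleases passed the filter of 1 RPM in 3 libraries in every comparison. In hepatic Ly6Clow macrophages, 4 of the 5 were called, 3 higher and 1 lower in Rnaset2-/- mice, where 42.7% of all 10808 genes tested were called. The median log2 fold change was 1.06 over the 5 genes and 0.01 over all genes. Rnase6 fell by 3.79 on the log2 scale (SE 0.43, adjusted p = 3.04e-04), with a mean of 41.7 against 501 RPM. Pld3 rose by 2.68 (SE 0.24, adjusted p = 1.12e-04), from 22.2 to 151 RPM. Dnase2a rose by 1.46 (SE 0.21, adjusted p = 0.00103), and Pld4 by 1.06 (SE 0.20, adjusted p = 0.00336). Each of these 4 genes was called under all 14 alternatives tried. Dnase1l3 differed by 0.68 (SE 0.66, adjusted p = 0.435) and was not called. Without replicate 2 of the Rnaset2-/- group, whose 57.6 RPM lay below every wild-type library, its difference was 1.57 (adjusted p = 0.00684), and without replicate 1, which held the most, it was 0.13 (adjusted p = 0.871). In sorted bulk samples, a smaller share of one cell type and less RNA per cell cannot be told apart. Markers of KCs and of several other cells moved with these changes. The summed level of KC markers, with all 10 detected, was 7368 to 12099 RPM in Rnaset2-/- hepatic Ly6Clow libraries, 532 to 890 RPM in wild-type ones and 7635 to 20359 RPM in KCs. Most of it in the Rnaset2-/- libraries was Cd5l, which encodes the apoptosis inhibitor of macrophage, at 5478 to 9639 RPM, whereas Clec4f was at 17.7 to 63.3 RPM there. Markers of conventional dendritic cells were lower, at 190 to 377 RPM against 677 to 799 RPM in wild-type libraries (6 of 10 called lower and 2 higher), as were those of Ly6Chi monocytes, at 68.5 to 427 RPM against 722 to 951 RPM (6 of 9 called lower). Markers of B cells (6 of 7), T cells (7 of 8) and erythroid cells (6 of 6) were called higher, with summed levels of 122 to 426, 44.4 to 144 and 68.7 to 179 RPM against at most 33.9, 34.6 and 7.76 RPM. Of 10 markers of Ly6Clow monocytes, 5 were called lower and 1 higher. The part of these shifts in the nuclease changes was not tested.

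In hepatic Ly6Chi macrophages, Dnase1l3 alone of the 5 genes was called, against 30.6% of all genes tested. It rose by 2.78 (SE 0.16, adjusted p = 1.27e-04), from a mean of 42.3 to 372 RPM, and was called under all 14 alternatives. Markers of liver sinusoidal endothelial cells, which also make Dnase1l3, were higher in these libraries. The summed level of 9 such markers, all detected, was 525, 2280 and 2774 RPM in Rnaset2-/- replicates 1, 2 and 3 and 173 to 201 RPM in wild-type libraries. Of these, Clec4g was at 99.4, 447 and 690 RPM against 22.3 to 36.9 RPM, and Stab2 at 21.6, 129 and 222 RPM against 2.01 to 5.10 RPM. In KCs the summed level was 3522, 4881, 7410 and 3577 RPM, with the highest value in replicate 3. Other markers moved in hepatic Ly6Chi macrophages too. Those of B cells were at 144 to 970 RPM in Rnaset2-/- and 56.6 to 99.9 RPM in wild-type libraries, those of T cells at 216 to 453 against 14.5 to 34.5 RPM, those of NK cells at 68.2 to 391 against 24.3 to 35.8 RPM and those of erythroid cells at 97.5 to 315 against 2.86 to 6.43 RPM. Ly6Chi monocyte markers were lower, at 1697 to 2376 against 3774 to 4155 RPM. Of 9 KC markers tested, 5 were called higher and 1 lower. Cd5l rose from a mean of 1.17 to 220 RPM and Vsig4 from 0.265 to 8.36 RPM, whereas Id3 fell from 649 to 165 RPM. The summed level of KC markers overlapped, at 658 to 749 RPM in Rnaset2-/- and 589 to 839 RPM in wild-type libraries. The part of RNA from endothelial or other cells in the Dnase1l3 values was not tested. In hepatic Ly6Clow macrophages, the summed level of the endothelial markers was 1430, 2120 and 4369 RPM in Rnaset2-/- replicates 1, 2 and 3 and 337 to 544 RPM in wild-type libraries. Most of the mean rise was in Pecam1, from 151 to 1950 RPM. Of the 9 markers, 3 were called higher, 1 was called lower (Fcgr2b, from 59.2 to 11.6 RPM) and 5 were not called. Clec4g, which was not called, was at 48.1, 84.8 and 656 RPM in Rnaset2-/- replicates 1, 2 and 3 against 51.0 to 143 RPM in wild-type libraries. The part of endothelial RNA in the Dnase1l3 values of this subset was not tested either. Stab2 was at most 0.28 RPM in any splenic library. The other 4 nucleases were not called in hepatic Ly6Chi macrophages. Rnase6 differed by -0.48 (adjusted p = 0.109), Dnase2a by -0.71 (adjusted p = 0.127), Pld3 by 0.72 (adjusted p = 0.396) and Pld4 by 0.21 (adjusted p = 0.441). Without Rnaset2-/- replicate 1, which stood apart by its markers and held 157 RPM of Pld3, Pld3 differed by -0.06 (adjusted p = 0.845) and Dnase2a was called lower at -1.08 (adjusted p = 0.00105). Without any other single library Dnase2a was not called, with differences of -0.81 to -0.44.

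**Figure D2:**
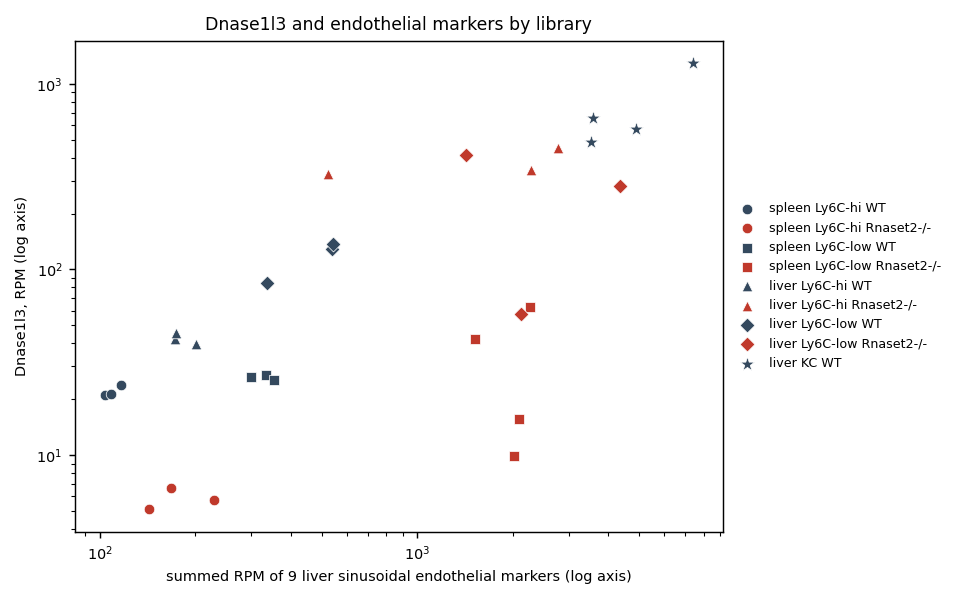
Dnase1l3 (vertical, RPM, log axis) against the summed RPM of 9 liver sinusoidal endothelial markers (horizontal, log axis) in each of the 29 libraries, by organ and subset (shapes) and genotype (colours). KCs hold the most Dnase1l3, at 486 to 1293 RPM, and splenic Rnaset2-/- Ly6Clow libraries lie at 1518 to 2276 RPM of markers with 9.93 to 62.8 RPM of Dnase1l3. Most of the marker sum in those splenic libraries is Pecam1, at a mean of 1883 RPM, with Kdr at 2.29 and Lyve1 at 0.994 RPM.

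In splenic Ly6Chi macrophages, 2 of the 5 genes were called, both lower in Rnaset2-/- mice, against 22.2% of all genes tested in either direction. Dnase1l3 fell by 1.66 (SE 0.15, adjusted p = 2.24e-05), from 22.1 to 5.83 RPM. Pld3 fell by 1.01 (SE 0.13, adjusted p = 2.72e-04), from 34.8 to 15.5 RPM. Pld4 was lower in all 3 Rnaset2-/- libraries than in any wild-type library, but was not called (log2 fold change -0.31, adjusted p = 0.059). Rnase6 differed by -0.09 (adjusted p = 0.525) and Dnase2a by 0.08 (adjusted p = 0.620). Markers of several cells outside the gate moved in the same direction. The summed level of 10 plasmacytoid dendritic cell markers was 419 to 437 RPM in wild-type and 200 to 252 RPM in Rnaset2-/- libraries, with Siglech at 38.5 to 43.0 against 3.97 to 6.08 RPM. The sum of 10 conventional dendritic cell markers was 318 to 347 against 103 to 110 RPM, that of 9 B cell markers 588 to 663 against 99.0 to 141 RPM, and that of 8 NK cell markers 485 to 524 against 21.1 to 56.5 RPM. Neutrophil markers were at 31836 to 34120 RPM in wild-type and 34683 to 60476 RPM in Rnaset2-/- libraries. The summed level of 20 immediate early genes was 19353 to 19578 RPM in wild-type and 10222 to 13593 RPM in Rnaset2-/- libraries, with 12 of the 20 called lower. The part of these cells and genes in the lower Dnase1l3 and Pld3 was not tested. The call of Pld3 was lost when all 29 libraries were fitted together (-1.0, adjusted p = 0.213).

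In splenic Ly6Clow macrophages, none of the 5 genes was called by limma, where 8.35% of all genes tested were called. At an unadjusted p below 0.05 there was 1 gene, Rnase6, and neither DESeq2 nor edgeR on the recovered reads called any. Rnase6 was at 553, 622 and 669 RPM in wild-type and at 207, 375, 434 and 465 RPM in Rnaset2-/- libraries, with no overlap and a log2 fold change of -0.78 (SE 0.29, adjusted p = 0.113). Pld3 differed by 0.73 (95% confidence interval -0.15 to 1.61) and Dnase1l3 by -0.03 (-1.21 to 1.15). The interval was narrower for Dnase2a, at 0.25 (-0.15 to 0.66), and for Pld4, at -0.31 (-0.71 to 0.09).

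**Figure D3:**
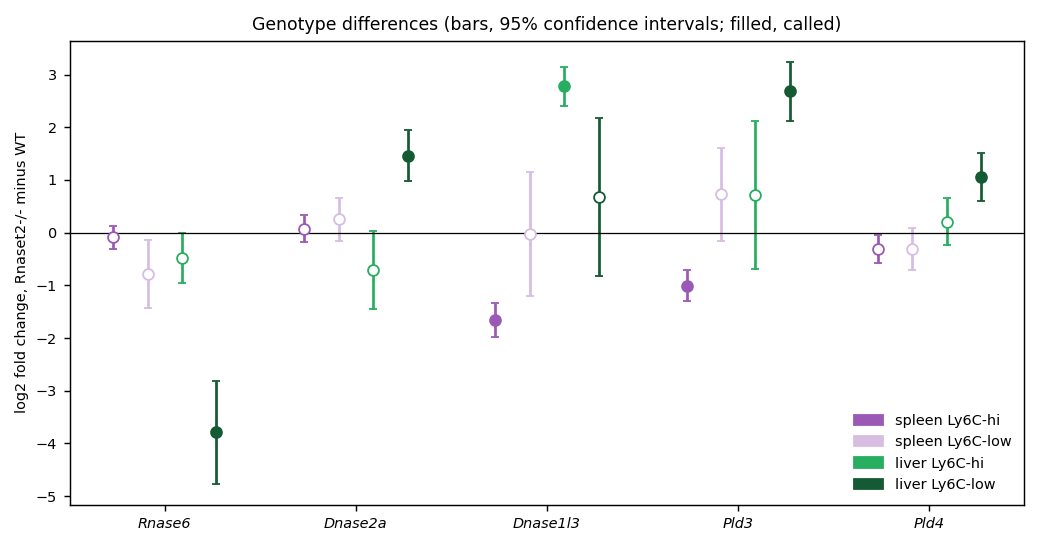
log2 fold change of each nuclease, Rnaset2-/- minus wild-type, in 4 organ and subset groups (colours), with 95% confidence intervals from limma (bars) and filled points for called differences. In hepatic Ly6Clow macrophages Rnase6 lies at -3.79 and Pld3 at 2.68, and no nuclease is called in splenic Ly6Clow macrophages.

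Whether the genotype difference itself differed between subsets or organs was tested as an interaction. Between hepatic Ly6Clow and Ly6Chi macrophages it differed for 3 of the 5 genes, where 10.3% of all genes tested were called. The Rnaset2-/- minus wild-type difference was lower in Ly6Clow than in Ly6Chi macrophages by -3.29 for Rnase6 (adjusted p = 0.00262), and higher by 2.19 for Dnase2a (adjusted p = 0.00695) and by 0.88 for Pld4 (adjusted p = 0.0463). The call of Pld4 was lost under 13 of 17 alternatives, 10 of which each left out a single library. For Pld3 the interaction was 1.98 (adjusted p = 0.106), and 2.78 without Rnaset2-/- Ly6Chi replicate 1 (adjusted p = 3.11e-04). For Dnase1l3 it was -2.08 (adjusted p = 0.107), -2.64 without Rnaset2-/- Ly6Clow replicate 1 (adjusted p = 0.0275) and -1.20 without replicate 2 (adjusted p = 0.0543). Between hepatic and splenic Ly6Clow macrophages, 4 of the 5 genes differed, against 26.8% of all genes. The genotype difference in the liver was lower for Rnase6 (-3.00, adjusted p = 0.00181) and higher for Dnase2a (1.22, adjusted p = 0.00664), Pld3 (1.96, adjusted p = 0.0133) and Pld4 (1.38, adjusted p = 0.00173), and these calls held under all 18 alternatives. Between hepatic and splenic Ly6Chi macrophages, 1 of the 5 genes differed against 33.5% of all genes. Dnase1l3 rose in the liver and fell in the spleen, a difference of 4.47 (SE 0.19, adjusted p = 1.88e-08). Without hepatic Rnaset2-/- replicate 1, Dnase2a (-1.14), Pld3 (0.96) and Pld4 (0.63) were also called. Pld3 was likewise called without hepatic Rnaset2-/- replicate 2 or 3, and Pld4 without splenic Rnaset2-/- replicate 1. In the spleen, where 14.7% of all genes were called, Pld3 differed between subsets by 1.72 (adjusted p = 0.0270). That call was lost in 7 of the 13 fits without a single library, with adjusted p up to 0.0635. Those were the fits without any of the 3 wild-type Ly6Chi libraries, wild-type Ly6Clow replicate 2 or 3, or Rnaset2-/- Ly6Chi replicate 2 or 3. Without Rnaset2-/- Ly6Clow replicate 3, Dnase1l3 was also called (2.02, adjusted p = 0.0149).

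Within a genotype, the Ly6Clow and Ly6Chi subsets were compared next. In the wild-type spleen, 2 of the 5 genes were called higher in Ly6Clow macrophages, against 33.6% of all genes in either direction. Rnase6 was higher by 0.96 (SE 0.09, adjusted p = 9.44e-06) and Pld4 by 0.65 (SE 0.08, adjusted p = 9.78e-05). In the Rnaset2-/- spleen, 3 genes were called higher in Ly6Clow macrophages, against 28.1% of all genes, namely Dnase1l3 (1.98, adjusted p = 0.0231), Pld3 (1.38, adjusted p = 0.0287) and Pld4 (0.63, adjusted p = 0.0289). None of the 3 was called without Rnaset2-/- Ly6Chi replicate 2 or without replicate 3. Without Ly6Chi replicate 1 or Ly6Clow replicate 4, 1 gene was called, and Pld4 was also lost without Ly6Clow replicate 3. In the wild-type liver, Dnase1l3 was the single gene called, against 10.1% of all genes, and was higher in Ly6Clow macrophages by 1.31 (SE 0.20, adjusted p = 0.00304). Without wild-type Ly6Clow replicate 2, Dnase2a was also called, at -0.73 (adjusted p = 0.0396). In the Rnaset2-/- liver, 2 genes were called, against 17.0% of all genes. Rnase6 was lower in Ly6Clow macrophages by -3.22 (SE 0.45, adjusted p = 0.00653), with 21.2 to 75.9 RPM against 323 to 470 RPM in Ly6Chi macrophages. Dnase2a was higher by 1.60 (SE 0.34, adjusted p = 0.0240), a call lost without Ly6Chi replicate 2 or 3 or any of the 3 Ly6Clow replicates (adjusted p 0.0563 to 0.0904). Same-numbered Rnaset2-/- liver libraries deviated together, and with the replicate number as a block Pld3 was also called higher in Ly6Clow macrophages, at 1.55 (adjusted p = 0.0222, against 0.133 without the block). Without Ly6Chi replicate 1, it was higher by 2.36 (adjusted p = 0.00199).

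KCs served as the resident reference for the hepatic macrophages. Against wild-type hepatic Ly6Clow macrophages, 4 of the 5 genes were called, where 50.0% of all genes tested were called. Rnase6 was lower in KCs by -2.83 (SE 0.20, adjusted p = 1.76e-06) and Pld4 by -1.56 (SE 0.23, adjusted p = 2.23e-04). Dnase1l3 was higher by 2.0 (SE 0.31, adjusted p = 3.68e-04) and Pld3 by 1.85 (SE 0.35, adjusted p = 0.00117). Dnase2a differed by 0.41 (adjusted p = 0.331), and by 0.22 to 0.76 without 1 library, with a call without KC replicate 3 (adjusted p = 0.00698). Markers of other cells were higher in KCs than in wild-type Ly6Clow macrophages. Hepatocyte markers were at 1570 to 5263 RPM against 50.7 to 211 RPM (7 of 8 called higher), B cell markers at 644 to 1307 against 28.2 to 33.9 RPM (9 of 9), T cell markers at 239 to 375 against 15.5 to 34.6 RPM (9 of 10), NK cell markers at 150 to 298 against 21.8 to 26.2 RPM (7 of 7) and endothelial markers at 3522 to 7410 against 337 to 544 RPM (8 of 9, with 1 lower). Their part in the nuclease differences was not tested. Rnaset2-/- hepatic Ly6Clow macrophages were compared with KCs directly, since both comparisons above share the wild-type Ly6Clow libraries. Of the 5 genes, 2 were called, both higher in the Rnaset2-/- macrophages, against 45.6% of all genes. Pld4 was higher by 2.60 (SE 0.27, adjusted p = 1.33e-04), at 1906 against 461 RPM, and was called under all 15 alternatives. Dnase2a was higher by 1.04 (SE 0.35, adjusted p = 0.0339), although the libraries overlapped and the call was lost under 5 of 15 alternatives, 2 of which left out Rnaset2-/- replicate 1 or 2. Pld3 differed by 0.82 (SE 0.35, adjusted p = 0.0815). Rnase6 was lower in the Rnaset2-/- macrophages in every library but was not called (-0.99, adjusted p = 0.0574). Without Rnaset2-/- replicate 1, both Rnase6 (-1.49, adjusted p = 0.00184) and Dnase1l3 (-1.87, adjusted p = 0.0322) were called lower than in KCs. Without replicate 2 they differed by -0.55 (adjusted p = 0.243) and -0.42 (adjusted p = 0.407). Hepatocyte markers (8 of 8) and endothelial markers (7 of 9, with 1 higher) were called lower than in KCs in this comparison as well. The scaling mattered in both comparisons with KCs, in which RPM as deposited moved the median of all genes to 0.55 and -0.56 on the log2 scale. On that scale Dnase2a was called higher in KCs than in wild-type Ly6Clow macrophages (0.99, adjusted p = 0.0239). Against KCs, Rnaset2-/- Ly6Clow macrophages then had lower Rnase6 (-1.51, adjusted p = 0.00803) and Dnase1l3 (-1.87, adjusted p = 0.0246), whereas the call of Dnase2a was lost (0.51, adjusted p = 0.233).

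**Figure D4:**
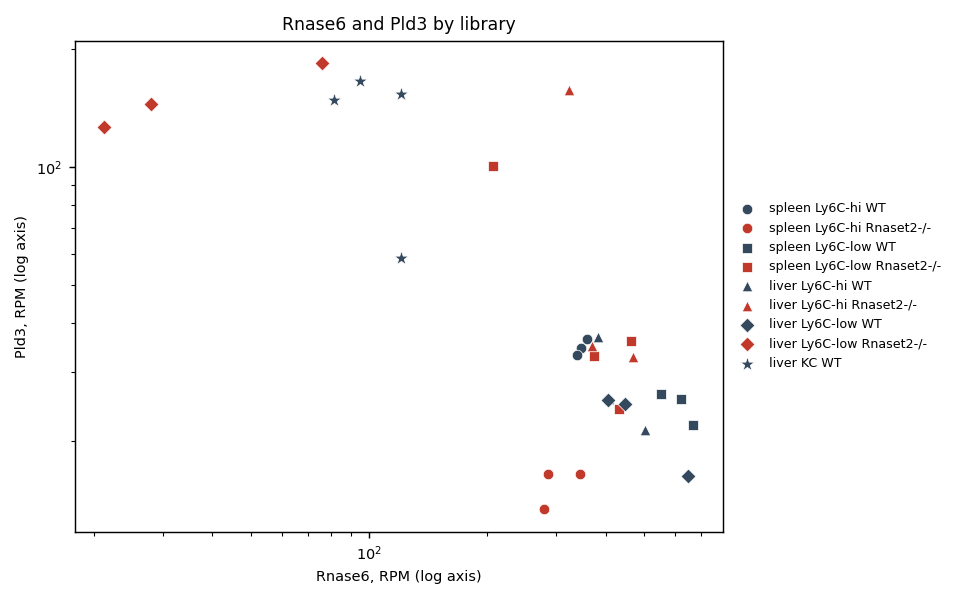
Pld3 (vertical, RPM, log axis) against Rnase6 (horizontal, RPM, log axis) in each of the 29 libraries, by organ and subset (shapes) and genotype (colours). The 3 Rnaset2-/- hepatic Ly6Clow libraries and the 4 KC libraries lie at 121 RPM of Rnase6 or less, and all other libraries at 207 RPM or more.

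Genes of the pathways around these nucleases were described from 5 lists. Over all genes tested, 22.2% were called in splenic Ly6Chi, 8.35% in splenic Ly6Clow, 30.6% in hepatic Ly6Chi and 42.7% in hepatic Ly6Clow macrophages, and each count below is to be read against that share. In hepatic Ly6Clow macrophages, 14 of 33 lysosome genes were called higher and 5 lower in Rnaset2-/- mice, beside 2187 higher and 2433 lower of all 10808 genes, with a median log2 fold change of 0.43 against 0.01 over all genes. Gla, which encodes alpha-galactosidase A, fell most (27.5 ± 11.8 against 78.9 ± 22.5 RPM, log2 fold change -1.56, adjusted p = 0.00635). In hepatic Ly6Chi macrophages 2 lysosome genes were called higher and 6 lower, and in either splenic subset 1 higher and 1 lower, of 33 each. Naglu rose most in hepatic Ly6Chi macrophages (1.52, adjusted p = 0.0214) and Gla fell most (-2.45, adjusted p = 0.0108). In the spleen, Cd63 rose and Gla fell in Ly6Chi macrophages (1.69 and -0.63), and the proton pump subunit Atp6v0d1 rose and the channel Mcoln1 fell in Ly6Clow macrophages (0.74 and -1.34). Mcoln1 also fell in hepatic Ly6Chi and Ly6Clow macrophages (-0.90 and -0.96).

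Of the 10 endosomal nucleic acid TLRs and their chaperones, 5 were called higher and 1 lower in Rnaset2-/- hepatic Ly6Clow macrophages (42.7% of all genes in either direction), with a median of 0.87. Tlr3, the receptor for double-stranded RNA, rose from 9.29 ± 5.2 to 31.6 ± 7.67 RPM (1.77, adjusted p = 0.0113), and Tlr7, a receptor for single-stranded RNA, fell from 389 ± 107 to 107 ± 4.29 RPM (-1.85, adjusted p = 2.77e-04). In hepatic Ly6Chi macrophages 1 was higher and 1 lower, Tlr3 (1.51, adjusted p = 0.0234) and Tlr9, the receptor for CpG DNA (-1.09, adjusted p = 0.0347). Tlr13, the receptor for bacterial ribosomal RNA, rose in splenic Ly6Chi macrophages from 45.8 ± 1.20 to 126 ± 29.8 RPM (1.53, adjusted p = 5.64e-05) while Tlr3 fell (-1.33, adjusted p = 0.00116). In splenic Ly6Clow macrophages Tlr13 was the single gene called and fell from 89.4 ± 16.5 to 48.4 ± 12.0 RPM (-0.88, adjusted p = 0.0493).

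Genes of nucleoside and nucleotide handling were tested 12 in each subset. In splenic Ly6Chi macrophages 6 were called higher and 1 lower, in splenic Ly6Clow macrophages 3 higher and 0 lower, in hepatic Ly6Chi macrophages 4 higher and 1 lower, and in hepatic Ly6Clow macrophages 4 higher and 2 lower, against 22.2%, 8.35%, 30.6% and 42.7% of all genes in the same order. Upp1, which encodes uridine phosphorylase, rose most in both splenic subsets, from 1.76 ± 0.456 to 15.0 ± 2.09 RPM in Ly6Chi (2.63, adjusted p = 7.34e-06) and from 1.90 ± 0.552 to 26.5 ± 8.87 RPM in Ly6Clow macrophages (3.2, adjusted p = 0.00110). In the liver, the nucleoside transporter Slc29a1 rose most in Ly6Chi macrophages (means of 5.04 and 47.6 RPM, 2.66, adjusted p = 0.00146) and the acid phosphatase Acp5 in Ly6Clow macrophages (280 ± 65.1 to 2392 ± 835 RPM, 3.01, adjusted p = 2.36e-04). Nt5e, which encodes the ectonucleotidase CD73, fell in splenic Ly6Chi and hepatic Ly6Clow macrophages (-1.68 and -1.16) and rose in hepatic Ly6Chi macrophages (1.44, adjusted p = 0.0091). Hprt, an enzyme of purine salvage, fell in hepatic Ly6Chi and Ly6Clow macrophages (-0.71 and -0.60) and rose in splenic Ly6Chi macrophages (0.66, adjusted p = 7.68e-04).

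Of the 11 cytosolic sensors and their adaptors tested, 0 to 2 were called higher and 1 to 3 lower in each subset, or 1 of 11 in either splenic subset and 4 of 11 in either hepatic one, beside the shares of all genes above. The DNA sensor Aim2 fell in all 4 comparisons, in splenic Ly6Chi (75.3 ± 3.93 to 42.7 ± 4.19 RPM), splenic Ly6Clow (96.5 ± 18.2 to 59.3 ± 4.96 RPM), hepatic Ly6Chi (73.1 ± 26.9 to 46.2 ± 5.94 RPM) and hepatic Ly6Clow macrophages (97.5 ± 35.6 to 31.9 ± 6.56 RPM). Mavs, the adaptor of cytosolic RNA receptors, rose in hepatic Ly6Chi (0.76, adjusted p = 0.0205) and Ly6Clow macrophages (2.26, adjusted p = 9.28e-05), and Irf7 fell in hepatic Ly6Chi macrophages (-0.92, adjusted p = 0.0144). Of 17 to 20 other nucleases tested, 4 were called higher in splenic Ly6Chi, 1 in splenic Ly6Clow, 2 in hepatic Ly6Chi and 3 in hepatic Ly6Clow macrophages, and 0, 0, 1 and 2 lower. In splenic Ly6Chi macrophages this share was that of all genes, 22.2%, and in the other 3 comparisons it was below that of all genes. Rnaseh2b, a subunit of RNase H2, rose most in splenic Ly6Chi macrophages (24.9 ± 2.02 to 58.2 ± 6.81 RPM, 1.30, adjusted p = 4.18e-05). Endod1 rose most in the other 3 comparisons, from means below 1 RPM to 2.91 ± 0.460, 4.18 ± 1.21 and 5.04 ± 1.64 RPM. Zc3h12a, which encodes the mRNA-cutting Regnase-1, fell in hepatic Ly6Chi macrophages (161 ± 57.8 to 62.6 ± 4.41 RPM), and Rnase2a, of the same family as Rnase6, fell in hepatic Ly6Clow macrophages (3.64 ± 0.342 to 1.00 ± 0.735 RPM).

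**Figure D5:**
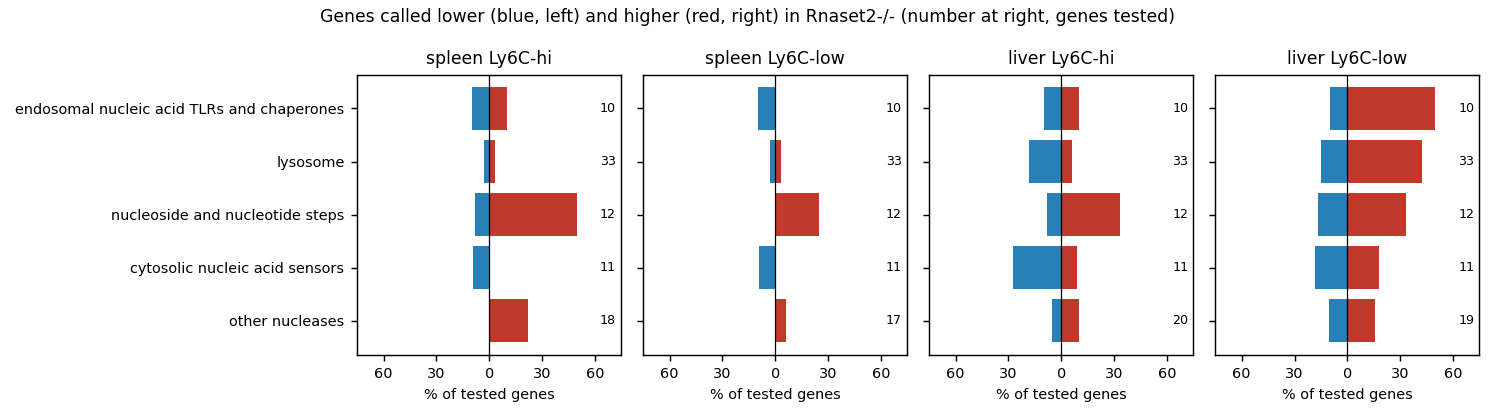
Percentage of tested genes of 5 lists called higher (red, to the right of 0) and lower (blue, to the left of 0) in Rnaset2-/- macrophages, by organ and subset, with the number of genes tested at the right of each panel. The largest shares called higher were 5 of 10 TLR genes and 14 of 33 lysosome genes in hepatic Ly6Clow macrophages and 6 of 12 nucleoside genes in splenic Ly6Chi macrophages.

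The levels of the nucleases were also set beside those of all 11502 genes with a mean of at least 1 RPM over the 29 libraries, by Pearson r on the log2 scale. The libraries share their groups and their depth, and r is given as a description. Rnase6 was most like Susd3 (r = 0.966), Lsp1 (0.965) and Lyl1 (0.942). Susd3 was at 6.48 RPM in Rnaset2-/- hepatic Ly6Clow macrophages, 23.3 RPM in KCs and 69.2 to 179 RPM elsewhere, and Lsp1, which encodes a leukocyte actin-binding protein, was at 49.1, 232 and 754 to 1275 RPM in the same order. Pld3 was most like Atp13a2 (0.926), which encodes a lysosomal polyamine transporter, P2rx4 (0.917), which encodes an ATP-gated channel found on lysosomes, and Ppp1r12b (0.901). Dnase2a was most like Sgpl1 (0.884), Blvra (0.882) and Ctsd (0.873), the last of which encodes the lysosomal protease cathepsin D. Pld4 was most like Fam49a (0.943), Fgr (0.923) and the beta-2 integrin gene Itgb2 (0.923). Among the genes most like Dnase1l3 were Nuak1 (0.936) and Tjp1 (0.936), which encodes a tight junction protein. Tjp1 was at 230 RPM in KCs, 71.5 and 49.2 RPM in Rnaset2-/- hepatic Ly6Chi and Ly6Clow macrophages and at most 17.0 RPM in the other groups. Among the nucleases themselves, Rnase6 and Pld3 had the strongest inverse relation (r = -0.77), Dnase2a and Pld3 the strongest positive one (0.80), and the value for Dnase2a and Pld4 was 0.01.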

How the data were processed

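Libraries of sorted splenic and hepatic macrophages were prepared by the authors with an Ion AmpliSeq mouse transcriptome kit, which amplifies a short target of each gene, and per the submitters' processing notes were aligned and counted with the AmpliSeqRNA plug-in 5.2.0.3 of Torrent Suite 5.2.2 on mm10. The deposited values are RPM, reads scaled to a fixed library total, for 23930 genes. In every library the low values were whole multiples of a step, and 100% of values came out as whole reads within 0.1, so that depth (11175843 to 21167602 reads, median 13027220) and reads per gene were recovered. No 2 replicates agreed within counting error. A count of 3 reads corresponded to 0.142 to 0.268 RPM, and such limits cover counting error only.

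Relative log expression factors were used to scale RPM, a gene was tested where 3 or more libraries of the comparison reached 1 RPM, and log2(scaled RPM + 1) was tested with limma 3.58.1 in R 4.3.3 (two-sided, trend in the prior variance, Benjamini-Hochberg adjustment over all genes tested). A gene was called at an adjusted p below 0.05 and a fold above 1.5. Groups were taken from the labels. Alternatives were RPM as deposited, 0.1 added before log2, no filter, no threshold on the fold, 1 fit of all libraries, DESeq2 1.42.0 and edgeR 4.0.16 on the recovered reads, the replicate number as a block, and leaving out each library. Same-numbered libraries deviated together in 1 comparison, Rnaset2-/- hepatic Ly6Clow against Ly6Chi, in which the correlation of their deviations from the group means was 0.53, 0.23 and 0.46, above the limit of 0.1 in all 3 pairs. Some single pairs passed that limit in other comparisons. The highest was replicate 1 of wild-type hepatic Ly6Clow against Ly6Chi, at 0.60, with -0.11 and -0.16 for replicates 2 and 3. The scripts were tested on simulated data. The nucleases and gene lists were chosen with earlier results of these data known. Beyond the nucleases, the genes named are the 3 most like each nuclease, the largest called rise and fall of each pathway list per genotype comparison, and markers that moved with a result, of which 2 genes are not reported here. Rnaset2a, Rnaset2b, Rnase4 and Trex1 were not analysed here.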

Additional observations from a re-analysis of the deposited data

Results flagged for a closer look

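In groups of 4 libraries, 3 values lay further from the rest of their group than Dixon's 95% limit allows, which chance passes in about 1 group in 20. Pld3 was at 100.7 RPM in replicate 1 of the splenic Rnaset2-/- Ly6Clow group, the library with 41668 RPM of neutrophil markers. Whether these values are linked was not tested. Pld3 at 58.7 RPM and Pld4 at 289 RPM in KC replicate 3 were both low, in the library with the lowest sum of KC markers of the 4 (7635 RPM).

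The genotype difference differed between organs or subsets for 9 values, each with an adjusted p from limma below 0.05 given in the report. Between Ly6Clow and Ly6Chi macrophages, the difference of log2 fold changes was 1.72 for Pld3 in the spleen, and in the liver -3.29 for Rnase6, 2.19 for Dnase2a and 0.88 for Pld4. Between liver and spleen it was 4.47 for Dnase1l3 in Ly6Chi macrophages, and in Ly6Clow macrophages -3.00 for Rnase6, 1.22 for Dnase2a, 1.96 for Pld3 and 1.38 for Pld4.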

How the results depend on the processing

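Over 1070 log2 fold changes of the nucleases recomputed under the alternatives, 965 kept their direction and their side of the threshold, 49 lost a call, 35 gained one and 21 changed sign. The cause was not tested in any case. The share of all genes called can also move with the setting, and is given further below for some cases. Counts without it cannot be set against all genes. The number of nucleases called moved by more than 1.5 times in the cases that follow. With 1 fit of all libraries it was 1 in splenic Ly6Chi by genotype, 0 in wild-type liver by subset, and 4 in both Rnaset2-/- liver by subset and Rnaset2-/- Ly6Clow against KCs. With the replicate block it was 1 in splenic Ly6Clow by genotype (Rnase6, -0.93, adjusted p = 0.0404 by limma) and 0 in Rnaset2-/- spleen by subset. With no filter it was 1 in Rnaset2-/- spleen by subset and 1 in Rnaset2-/- Ly6Clow against KCs, where edgeR also gave 1. In wild-type spleen by subset it was 1 with RPM as deposited and 4 with no threshold on the fold. In the splenic interaction it was 2 with DESeq2 and 2 with edgeR, and in the Ly6Chi interaction between organs 3 with RPM as deposited, 2 with DESeq2 and 3 with edgeR. By 1.5 times or less, it moved to 5 in KCs against wild-type Ly6Clow and 3 in Rnaset2-/- Ly6Clow against KCs with RPM as deposited, to 3 in Rnaset2-/- liver by subset with DESeq2 and with the block, and to 2 in the hepatic interaction with RPM as deposited, with 0.1 added and with the block. Leaving out 1 library gave 1 to 2 in hepatic Ly6Chi by genotype, 0 to 3 in Rnaset2-/- spleen by subset, 1 to 2 in wild-type liver by subset, 1 to 3 in Rnaset2-/- liver by subset, 1 to 3 against KCs, 0 to 2 in the splenic interaction and 1 to 4 in the Ly6Chi interaction.

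The values that changed sign were not called. With RPM as deposited, Dnase2a was -0.038 in splenic Ly6Chi by genotype and -0.10 in wild-type spleen by subset, Pld4 0.11 in the splenic interaction and Rnase6 0.040 in the Ly6Chi interaction. Dnase1l3 in splenic Ly6Clow by genotype was 0.30 with DESeq2, 0.29 with edgeR and 0.17 with the block, and Pld4 in the splenic interaction was 0.025 with edgeR. Without 1 library, the range was -0.025 to 0.17 for Dnase2a in splenic Ly6Chi and -0.44 to 0.38 for Dnase1l3 in splenic Ly6Clow by genotype, -0.063 to 1.13 for Pld3 in hepatic Ly6Chi by genotype, -0.12 to 0.23 for Rnase6 in wild-type liver by subset and -1.35 to 0.11 for Dnase1l3 in Rnaset2-/- liver by subset. In the splenic interaction it was -0.14 to 0.085 for Pld4 and -0.0074 to 0.26 for Dnase2a.

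RPM as deposited moved the median log2 fold change of all genes to 0.31 in hepatic Ly6Chi by genotype, 0.35 in the Ly6Chi interaction, -0.26 in the hepatic interaction, -0.17 in Rnaset2-/- liver by subset, -0.13 in wild-type spleen by subset, 0.11 in wild-type liver by subset and 0.11 in the splenic interaction. The replicate block moved the share of all genes called to 12.8% in Rnaset2-/- spleen by subset and 28.8% in Rnaset2-/- liver by subset. In splenic Ly6Chi by genotype that share was 8.19% in 1 fit of all libraries and 38.1% with no threshold on the fold, and in splenic Ly6Clow by genotype 15.5% with DESeq2. With 1 fit of all libraries it was 40.3% in hepatic Ly6Chi by genotype and 27.2% in Rnaset2-/- liver by subset, and with no threshold on the fold 51.4% in wild-type spleen by subset. Groups of 3 or 4 libraries limit every comparison.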
